A study of Mus musculus with 11 samples.

Results

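Loss of 1 copy of Csf1r was examined in sorted cerebral microglia of old mice, pooled over the Csf2 genotype of the animals. The 5 RNA-seq libraries from mice with 1 Csf1r copy were compared with the 6 from mice with 2 copies, which together are all 11 libraries of the series, and the number of Csf2 copies entered the fit as a covariate. The cells had been isolated by sorting on Tmem119, a surface protein of microglia, from C57BL/6 mice. The 2-copy arm held 3 wild-type libraries (WT) and 3 from Csf2+/- mice (Csf2_het), and the 1-copy arm held 3 from Csf1r+/- mice (Csf1r_het) and 2 from double heterozygotes, Csf1r+/- and Csf2+/- (Dhet). All 6 libraries of the 2-copy arm were from mice aged 21 months. In the 1-copy arm the ages were 20, 24 and 21 months for Csf1r_het replicates 1, 2 and 3, and 21 and 24 months for Dhet replicates 1 and 2. Both 24-month libraries therefore carried 1 Csf1r copy, and the main counts, the Csf1r level and the list medians that moved by over 1.5 times are also given without them. The labels do not say whether a library is 1 mouse or a pool, and p-values measure the spread between these libraries.

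Csf1r encodes the receptor tyrosine kinase for the cytokines CSF1 and IL-34, and microglia depend on its signal for survival and proliferation. Ligand binding recruits adaptors and Src-family kinases and feeds the PI3K and ERK pathways, and phosphatases of the DUSP family switch MAP kinases off again. In humans, mutations in 1 CSF1R allele cause a white-matter disease of adult onset, and Csf1r+/- mice serve as its model. Csf2 encodes GM-CSF, a second growth factor of myeloid cells that acts through Csf2ra and Csf2rb.

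Values are normalized counts, that is, reads scaled by the authors so that libraries can be compared. Of 14739 genes in the table, 13223 had a mean of at least 10 and were tested. The libraries held 21037819 to 53081638 reads. Haemoglobin genes took 16.1% to 58.8% of the reads of a library, with the highest share in Csf1r_het replicate 2, where 15.6% of genes were at 0 against 4.98% to 9.88% elsewhere. Dhet replicate 2 differed in genes of the sex chromosomes, with Ddx3y at 717 and Xist at 4.02, where the other 10 libraries had at most 16.3 and at least 3011. The labels give no sex. Dhet replicate 2 is 1 of the 2 Dhet libraries and is also from a mouse of 24 months, so these differences cannot be told apart in the Dhet values. The microglial markers Tmem119 and P2ry12 were abundant in every library, at no less than 5432 and 12809, both in WT replicate 2. Genes of blood cells and of the choroid plexus were present too, among them the choroid plexus gene Ttr at 226138 to 1409440 in the 1-copy arm and 266811 to 1103860 in the 2-copy arm. In bulk samples of this kind, fewer cells of a type and less RNA per cell cannot be told apart.

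Csf1r itself (ENSMUSG00000024621.15) followed the genotype labels. Its normalized counts were 93319, 41261 and 63538 in WT and 53873, 58211 and 66762 in Csf2_het, against 17017, 40567 and 24022 in Csf1r_het and 40151 and 30254 in Dhet. All 5 libraries with 1 copy lay below all 6 with 2, although the highest of the 5 (40567) was close to the lowest of the 6 (41261). The 1-copy mean was 48.4% of the 2-copy mean (30402 ± 10226 against 62827 ± 17391, SD, n = 5 and 6). The log2 difference with Csf2 as covariate was -1.06 (SE 0.36, 95% interval -1.83 to -0.30). A 2-sided exact permutation test within Csf2 genotypes gave p = 0.005, the smallest that its 200 regroupings allow, while the limma p adjusted over all genes was 0.985. Within Csf2+/+ mice the difference was -1.29 and within Csf2+/- mice -0.77, and without the 24-month libraries it was -1.22.

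**Figure D1:**
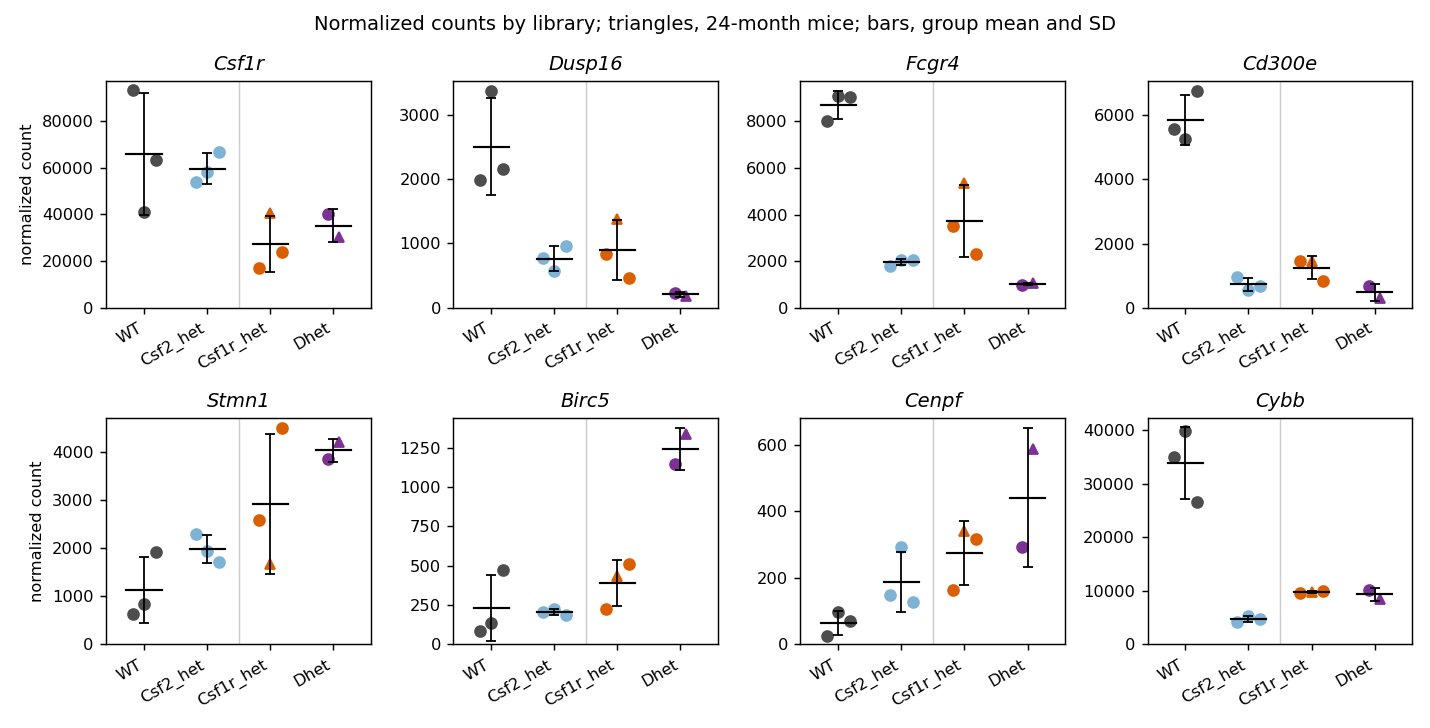
Normalized counts of 8 genes in each library (points; triangles are the 24-month mice), by genotype, with the group mean (line) and SD (bar); the y axes are linear and start at 0. Csf1r separates the arms at every point, whereas Cybb is low in Csf1r_het relative to WT and high in Dhet relative to Csf2_het.

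No gene passed the limma test for a pooled Csf1r effect. With limma at an adjusted p of 0.05, 0 of 13223 genes were higher and 0 lower (0% in each direction), and edgeR's quasi-likelihood test on the recovered reads also called 0 (455 at an unadjusted p under 0.05). At an unadjusted limma p under 0.05 there were 497 genes (3.76%), of which 189 (1.43%) were higher and 308 (2.33%) lower with 1 copy. DESeq2 on the same reads called 11 genes, 4 higher (Cenpi, Lamp5, and the predicted genes Gm10240 and Gm13370, which had equal fitted values and may share reads) and 7 lower (Dusp16, Saa3, Dusp5, Fabp4, Fcgr4, Cd244 and Ptk2b). Without Dhet replicate 2, limma called 2 genes lower, Thbd (log2 -3.66) and Dpep2 (log2 -2.89), both at an adjusted p of 0.0401. The median 95% interval of a gene reached 0.991 log2 to either side, and for 3465 genes (26.2%) the interval excluded a log2 change of 1 in either direction. In the plot of unadjusted p-values the bin under 0.05 was below the even level for the pooled effect and above it for the interaction described further on.

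**Figure D2:**
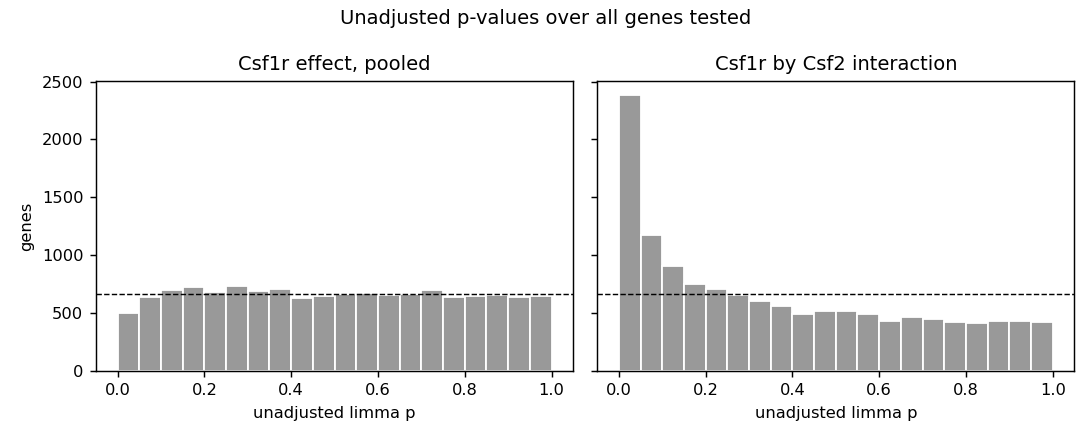
Histograms of unadjusted limma p-values (x axis) over the 13223 genes tested (y axis, genes per bin); the dashed line is an equal number in every bin. The pooled Csf1r effect has 497 genes under 0.05, and the interaction of Csf1r with Csf2 genotype has 2385.

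The genes with the lowest p-values are given as values, since none passed the limma test (adjusted p = 0.985 for each of the 20). On the lower side they included 2 phosphatases and 3 receptors of myeloid cells. Dusp16, a phosphatase of JNK and p38, had 1986, 3361 and 2162 normalized counts in WT and 829, 1382 and 457 in Csf1r_het. In Csf2+/- mice it had 769, 568 and 951 in Csf2_het and 236 and 176 in Dhet. The 1-copy libraries lay below the 2-copy libraries within each Csf2 genotype, and the pooled difference was 3.28-fold (log2 -1.72, SE 0.32). Dusp5, a nuclear phosphatase of ERK, was at 120 to 189 in the 1-copy libraries and at 194 to 2175 in the 2-copy libraries, with no overlap (log2 -2.14, SE 0.50).

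Fcgr4, an activating Fc receptor for IgG, had 7994, 9067 and 9039 in WT, 3507, 5358 and 2287 in Csf1r_het, 1810, 2042 and 2056 in Csf2_het, and 990.4 and 1061 in Dhet. Again the 1-copy libraries lay below within each Csf2 genotype, while the arms overlapped across the Csf2 genotypes (log2 -1.14, SE 0.24). Cd300e, an activating receptor of monocytes, differed by log2 -1.56 (SE 0.35). Its values were 5557, 5254 and 6740 in WT, 1444, 1467 and 829.6 in Csf1r_het, 950.2, 556.8 and 674.4 in Csf2_het and 672.1 and 295.5 in Dhet. One Dhet library lay within the Csf2_het values. Cd244, a receptor of the SLAM family, differed by log2 -1.63 (SE 0.36), with 4 of the 5 one-copy libraries below all 6 others. The remaining lower genes were Ptk2b (a calcium-responsive kinase, log2 -1.05), Plagl2 (a zinc-finger transcription factor, -1.28), Ext1 (heparan sulfate synthesis, -1.78), Fabp4 (a fatty acid carrier, -1.89) and Pik3c3 (the class III PI3-kinase of autophagy, -1.29). Fabp4 had 6074 in WT replicate 2 against 257 to 1056 in the other 2-copy libraries.

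On the higher side, 5 of the 10 genes are known for cell division or DNA synthesis, a grouping made after the genes were seen. Birc5, the survivin of the chromosomal passenger complex, had 88.0, 134 and 473 in WT, 226, 433 and 511 in Csf1r_het, 206, 223 and 189 in Csf2_het and 1147 and 1333 in Dhet. The Dhet libraries were above all others, while Csf1r_het overlapped WT (log2 1.73, SE 0.48). Cenpf, a kinetochore protein, was at 24.4 to 292 with 2 copies (median 112) and at 164, 342, 316, 293 and 589 with 1 copy. The arms overlapped in 1 library only, Csf1r_het replicate 1 (log2 1.78, SE 0.51). Cenpi, a centromere protein, differed by log2 2.79 (SE 0.73), with 4 of 5 1-copy libraries above all 6 others. Stmn1, a regulator of microtubules, differed by log2 1.24 (SE 0.32), and Dut, which removes dUTP, by log2 1.15 (SE 0.34). The other members of the 10 were Mobp (a myelin protein, 1.94), Chac2 (glutathione breakdown, 1.49), Clec1a (a C-type lectin, 1.97), Tmem130 (3.09) and Rps13-ps2 (5.09). Rps13-ps2 is a ribosomal pseudogene at 0 in 4 of the 6 two-copy libraries, and its reads may be split with copies of Rps13. All 20 genes kept their sign in all 27 alternative fits. These fits reuse the libraries in which the genes were chosen for low p, so the kept signs are no independent test.

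**Figure D3:**
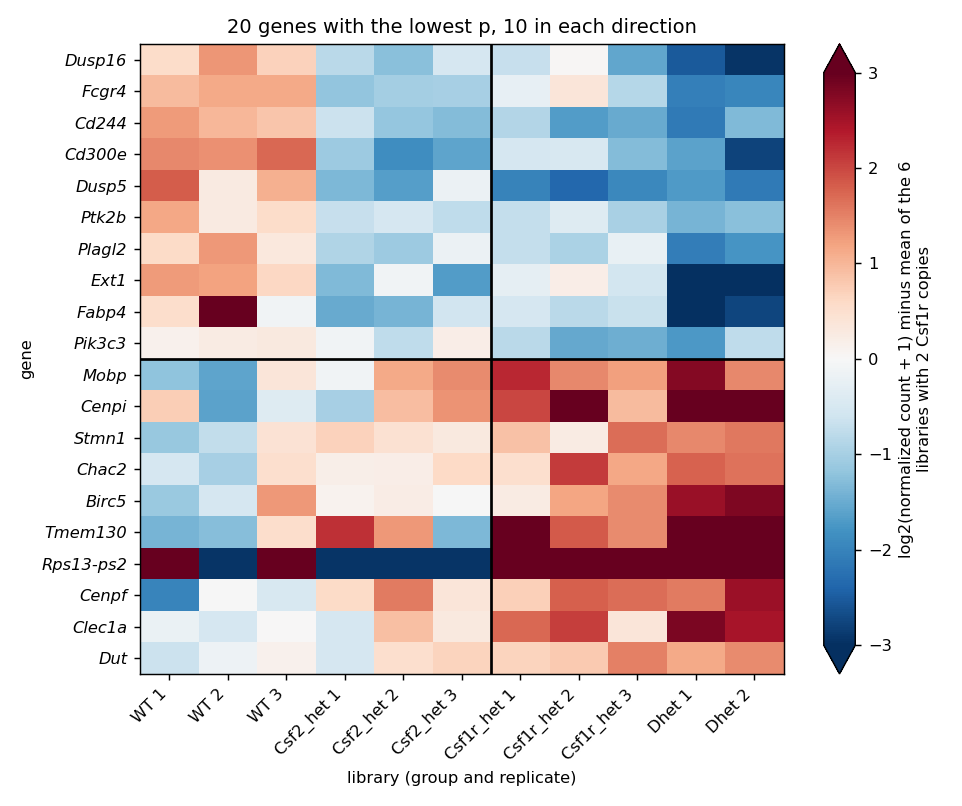
Levels of the 20 genes with the lowest p (rows, 10 in each direction) in the 11 libraries (columns), as log2(normalized count + 1) minus the mean of the 6 libraries with 2 copies (colour). The upper 10 genes are above the 2-copy mean (red) in most WT libraries and lowest (dark blue) mainly in Dhet; Csf2_het libraries are mostly blue in these rows.

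Promoters of 4 of these genes are shown, a receptor and a phosphatase from the lower side and 2 mitotic genes from the higher side, chosen because they hold matches to the motifs below. The RefSeq promoter table used here (GRCm38.p6) matched 4 of the 10 lower and 7 of the 10 higher genes. Each window holds 250 bases before and 50 after the start, 5′ to 3′ on the gene's strand. Capitals mark matches, on either strand, to GAGGAAGT (the core bound by the myeloid factor PU.1), TTTGAA or TTTAAA (the cell-cycle homology region), or CCAAT (the NF-Y box). TTTAAA is its own reverse complement and is counted once. The windows are Fcgr4 chr1:171018676-171018975 (+), Dusp5 chr19:53528895-53529194 (+), Cenpf chr1:189688037-189688336 (-) and Birc5 chr11:117848987-117849286 (+).
Fcgr4: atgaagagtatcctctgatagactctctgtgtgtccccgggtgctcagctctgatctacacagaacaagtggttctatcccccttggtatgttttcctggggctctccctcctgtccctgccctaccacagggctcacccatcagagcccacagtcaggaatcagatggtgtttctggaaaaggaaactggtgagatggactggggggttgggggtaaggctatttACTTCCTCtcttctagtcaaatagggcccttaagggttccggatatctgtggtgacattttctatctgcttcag
Dusp5: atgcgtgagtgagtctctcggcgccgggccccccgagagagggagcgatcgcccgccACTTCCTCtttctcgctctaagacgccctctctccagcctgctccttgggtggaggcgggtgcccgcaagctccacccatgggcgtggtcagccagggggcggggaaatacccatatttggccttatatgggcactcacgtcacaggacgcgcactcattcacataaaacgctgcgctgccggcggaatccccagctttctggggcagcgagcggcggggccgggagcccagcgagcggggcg
Cenpf: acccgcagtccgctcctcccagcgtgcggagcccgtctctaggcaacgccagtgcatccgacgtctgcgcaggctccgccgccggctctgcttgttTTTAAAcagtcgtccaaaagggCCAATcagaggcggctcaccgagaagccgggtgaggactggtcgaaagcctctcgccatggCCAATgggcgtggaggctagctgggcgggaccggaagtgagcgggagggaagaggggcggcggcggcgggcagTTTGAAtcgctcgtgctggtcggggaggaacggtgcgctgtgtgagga
Birc5: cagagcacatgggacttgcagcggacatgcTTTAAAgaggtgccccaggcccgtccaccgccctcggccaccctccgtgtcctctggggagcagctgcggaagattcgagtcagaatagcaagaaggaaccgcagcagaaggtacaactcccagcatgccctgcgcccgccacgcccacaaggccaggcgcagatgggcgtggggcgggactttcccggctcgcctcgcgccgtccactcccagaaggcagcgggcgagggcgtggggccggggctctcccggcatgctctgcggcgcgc
GAGGAAGT occurred in 2 of the 4 lower promoters (Fcgr4 and Dusp5) and 0 of the 7 higher ones, against 3.20% of all 32851 promoters of the same length. TTTGAA occurred in 0 of 4 lower and 2 of 7 higher promoters against 17.9% of all. TTTAAA occurred in 1 of 4 (Dusp16) and 2 of 7 against 13.2%, and CCAAT in 1 of 4 (Dusp16) and 3 of 7 against 37.4%, so both were found on either side. The motifs were chosen with the expression values known, and a match is a description of the letters, not a site or a cause.

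By role in the CSF system, the other receptors and ligands had smaller log2 differences than Csf1r. Of 12 genes listed, 8 were tested, 6 lower and 2 higher, with a median log2 difference of -0.27 beside -0.05 over all genes. Csf1r itself is counted among the 6 lower genes and in this median, and 0 were called. Csf1, the ligand, was at 154 to 488 with 2 copies and at 232 to 885 with 1 (log2 0.36, SE 0.40). Csf2rb, the shared signalling chain of the GM-CSF receptor, was at 5995, 5546 and 3670 in WT and at 1203, 2595 and 1765 in Csf1r_het, but at 1306, 1425 and 1338 in Csf2_het and at 1957 and 1701 in Dhet. The order of the copy numbers thus turned between the Csf2 genotypes (log2 -1.49 and 0.43), although this interaction missed the threshold (limma adjusted p = 0.0627). Csf2ra had log2 -0.55 (SE 0.33), Csf3r -0.29 (SE 0.31), Csf2rb2 -0.06 (SE 0.42), Il3ra -0.25 (SE 0.64) and Flt3 0.14 (SE 0.72).

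Downstream of the receptor, 22 of 24 genes of proximal signalling lay lower (median -0.46), 0 called. Gab2, an adaptor to PI3K, was the only one under an unadjusted limma p of 0.05 (log2 -0.76, SE 0.33). Of these 24, 18 had opposite signs in the 2 Csf2 genotypes, and 17 were higher in Dhet than in Csf2_het. The adjacent ERK feedback genes divided evenly, 6 lower and 6 higher (median -0.05, which became 0.06 with haemoglobin genes removed). That setting also rescaled each library to the same total of the remaining genes. Of 18 myeloid transcription factors 13 lay lower (median -0.33), and Cebpb, Bhlhe40 and Nfil3 were under an unadjusted p of 0.05. Of these 18, 12 had opposite signs in the 2 Csf2 genotypes, as had 8327 of all 13223 genes tested. Cebpb, a factor of inflammatory myeloid genes, was at 2452 to 23395 with 2 copies and at 509 to 6426 with 1. Of 11 TGF-beta pathway genes 10 lay lower (median -0.31), but 9 of the 11 had opposite signs in the 2 Csf2 genotypes (medians -0.53 and -0.33). Smad4, the shared mediator of that pathway, was at 922 to 1558 with 2 copies and below all of these in 4 of 5 libraries with 1, Dhet replicate 1 being the exception at 1408.

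Among genes of microglial identity and activation, 0 were called. Of 19 homeostatic genes 14 lay higher (median 0.17, which became -0.12 without WT replicate 2), and Tmem119, P2ry12 and Cx3cr1 differed by 0.30, 0.43 and -0.03. Csf1r itself belongs to this list and lay lower. Of the 19, 18 were higher in Csf1r_het minus WT (median 0.41), against 5 in Dhet minus Csf2_het (median -0.32). Of 22 disease-associated microglia genes 15 lay higher (median 0.15), with medians of 0.34 in Csf1r_het minus WT and -0.40 in Dhet minus Csf2_het. Cst7, an inhibitor of lysosomal proteases, was at 674 to 2343 with 2 copies and at 1245 to 3782 with 1 (log2 0.98, SE 0.37). Its log2 difference was 1.75 in Csf1r_het minus WT and 0.01 in Dhet minus Csf2_het. Itgax, an integrin of the same programme, had log2 -1.03 (SE 0.47). It was at 1021 to 1860 in WT and 384 to 765 in Csf1r_het. In Csf2+/- mice the groups overlapped, at 120 to 550 in Csf2_het and at 408 and 129 in Dhet. Among cytokines, 7 of 13 lay higher, Il1a at log2 1.25 and Il1b at -0.93. Il1b was at 4434, 7222 and 4857 in WT and at 2033, 1665 and 1073 in Csf1r_het. In Csf2+/- mice its values overlapped, at 793, 407 and 1480 in Csf2_het and at 838 and 918 in Dhet.

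For antigen presentation, all 9 MHC class I genes tested lay lower (median -0.31, none under an unadjusted p of 0.05), as did 4 of 7 class II genes (median -0.06, which became 0.06 with haemoglobin genes removed). Interferon response genes were lower in 14 of 24 (median -0.14) and complement genes in 8 of 14 (median -0.13, which became 0.06 in edgeR and 0.08 in DESeq2). The phagocyte oxidase had 4 of 7 lower (median -0.16), and antioxidant genes 9 of 20 (median 0.12).

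Metabolic lists had more genes lower than higher. Ribosomal protein genes were lower in 29 of 30 (median -0.34, which became 0.05 without WT replicate 2), lipid handling genes in 15 of 20 (median -0.24), glycolysis genes in 12 of 17 (-0.14), oxidative phosphorylation genes in 15 of 23 (-0.13), lysosomal genes in 13 of 22 (-0.07, which became 0.04 with haemoglobin genes removed) and ER stress genes in 7 of 11 (-0.22). Of the 20 lipid handling genes, 14 had opposite signs in the 2 Csf2 genotypes. In that list, Nr1h3, the sterol sensor LXR alpha, was at 64.0 to 224 with 2 copies and at 6.01 to 140 with 1 (log2 -1.91, SE 0.71). Plin2, a coat protein of lipid droplets, differed by log2 -1.06 (SE 0.40). It was at 4347, 3800 and 5722 in WT and at 1027, 1052 and 919 in Csf1r_het. In Csf2+/- mice the groups overlapped, at 899, 974 and 751 in Csf2_het and at 908 and 1346 in Dhet. Removing haemoglobin genes and rescaling each library to the same total moved the median of all genes by 0.11, to 0.06. None of the genes in these lists was called by limma.

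Proliferation genes had the opposite balance. Of 15 tested 14 lay higher with 1 copy (median 0.93), and Birc5, Cdk1, Tyms, Ccna2 and Mki67 were under an unadjusted p of 0.05, none past adjustment. Mki67, which marks dividing cells, was at 170, 231 and 406 in WT, 176, 212 and 448 in Csf1r_het, 153, 173 and 76.3 in Csf2_het and 743 and 1076 in Dhet. Csf1r_het and WT overlapped, and the high values were those of Dhet. The list medians were -0.30 in Csf1r_het minus WT and 2.46 in Dhet minus Csf2_het. Neutrophil markers moved with them, all 10 higher (median 0.92, and -0.76 and 3.23 in the Csf2 genotypes). Their summed level was 676566 to 755403 in Dhet, 114846 to 194614 in Csf2_het, 48932 to 784923 in WT and 27268 to 456093 in Csf1r_het, and Elane was at 0 in 1 library, Csf1r_het replicate 1. Their part in the proliferation values was not tested.

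Markers of neural cells lay higher as well. All 5 neuronal genes tested were higher (median 1.37), Snap25 and Nefl at an unadjusted p under 0.05, with summed levels of 310 to 1952 in the 2-copy arm and 778 to 3134 in the 1-copy arm. Of 5 oligodendrocyte genes 4 were higher (median 0.71), with sums of 3754 to 6412 and 4065 to 10131, and Mobp above belongs to them. Astrocyte genes were higher in 6 of 7 (median 0.41), the choroid plexus list in 6 of 10 (0.15) and the erythroid list in 7 of 7 (0.28). Border macrophage genes were higher in 3 of 5 (0.22), B cell genes in 3 of 7 (-0.16, which became 0.14 in edgeR), T and NK cell genes in 6 of 9 (0.07, which became -0.09 in edgeR), endothelial genes in 3 of 5 (0.06), oligodendrocyte precursor genes in 1 of 2 (0.44), and the single mural gene, Acta2, was lower (-1.25). Immediate early genes, which respond to cell dissociation, were lower in 14 of 16 (median -0.34), with medians of -1.33 within Csf2+/+ and 0.52 within Csf2+/- mice. What part these cell types have in the pooled values was not tested.

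Most of the smaller list medians rested on single libraries. Leaving out 1 library turned the sign of the pooled median in 20 of 35 lists. The 15 that kept their sign included proximal signalling (-0.60 to -0.30), MHC class I (-0.62 to -0.18), myeloid transcription factors (-0.41 to -0.22), TGF-beta (-0.46 to -0.17), lipid handling (-0.35 to -0.13), proliferation (0.56 to 1.26), neutrophils (0.36 to 1.78) and neurons (0.95 to 1.82). Some of these still turned within 1 Csf2 genotype. Proximal signalling (0.37) and MHC class I (0.37) did so within Csf2+/- mice, and proliferation (-0.30) and neutrophils (-0.76) within Csf2+/+ mice. Myeloid transcription factors, TGF-beta, lipid handling and neurons kept their sign in both genotypes. Within Csf2+/- mice, however, the median was close to 0 for myeloid transcription factors (-0.06, 8 of 18 genes higher) and lipid handling (-0.05, 9 of 20 higher). Within Csf2+/+ mice these 2 medians were -0.55 and -0.58. TGF-beta had -0.53 and -0.33, and neurons 1.89 and 0.98, in Csf2+/+ and Csf2+/- mice. Without Csf1r_het replicate 2 the median turned for ER stress (0.03), astrocytes (-0.07), erythroid genes (-0.21), B cells (0.57), T and NK cells (-0.06), cytokines (-0.06), ERK feedback (0.07) and endothelium (-0.12). Without WT replicate 2 it turned for homeostatic genes (-0.12), interferon response (0.10), oxidative phosphorylation (0.17), ribosomal proteins (0.05), choroid plexus (-0.33), border macrophages (-0.05) and B cells (0.08). Without Dhet replicate 2 it turned for border macrophages (-0.47), monocytes (-0.21), oligodendrocyte precursors (-0.41), lysosome (0.05) and ERK feedback (0.01), and without Csf1r_het replicate 3 for the phagocyte oxidase (0.02), cytokines (-0.17), choroid plexus (-0.03) and endothelium (-0.02). The other 7 libraries turned further lists, among them border macrophages without Csf2_het replicate 3 (-0.18) and MHC class II without WT replicate 1 (0.07).

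Without both 24-month libraries, 19 of 35 list medians moved by over 1.5 times or turned. Those that turned were oligodendrocyte precursors (0.44 to -0.90), monocytes (0.16 to -0.15), ERK feedback (-0.05 to 0.19) and lysosome (-0.07 to 0.03). Lists that moved away from 0 were the CSF ligands and receptors (-0.27 to -0.59), MHC class II (-0.06 to -0.30), interferon response (-0.14 to -0.24), phagocyte oxidase (-0.16 to -0.25), homeostatic genes (0.17 to 0.29), disease-associated microglia genes (0.15 to 0.35), cytokines (0.04 to 0.58), endothelium (0.06 to 0.15) and T and NK cells (0.07 to 0.15). Lists that moved towards 0 were ribosomal proteins (-0.34 to -0.17), ER stress (-0.22 to -0.11), antioxidant genes (0.12 to 0.07), astrocytes (0.41 to 0.03), erythroid genes (0.28 to 0.0089) and border macrophages (0.22 to 0.04). Proliferation (0.70), proximal signalling (-0.57) and neurons (1.65) moved by less.

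The effect of a Csf1r copy was not the same in the 2 Csf2 genotypes. Csf1r_het minus WT and Dhet minus Csf2_het use separate libraries, with 1 estimate of spread. Across the 13223 genes their log2 differences correlated at r = -0.26 and rho = -0.32 (genes are not independent replicates), and 4896 genes (37.0%) had the same sign while 8327 had opposite signs. The interaction passed in 244 genes (1.85%), 159 (1.2%) of them more positive in Csf2+/- mice and 85 (0.643%) more negative. All 244 had opposite signs in the 2 genotypes. Leaving out 1 library gave 47 (Dhet replicate 1) to 896 genes (WT replicate 2), and the count moved by over 1.5 times for each library except WT replicate 3, Csf1r_het replicate 2 and Dhet replicate 2 (217, 242 and 245). Without both 24-month libraries it was 370. With 21-month libraries only, which left 1 library each of Csf1r_het and Dhet, limma called 0 genes (1756 at an unadjusted p under 0.05). The edgeR count was 208 and the DESeq2 count 909.

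**Figure D4:**
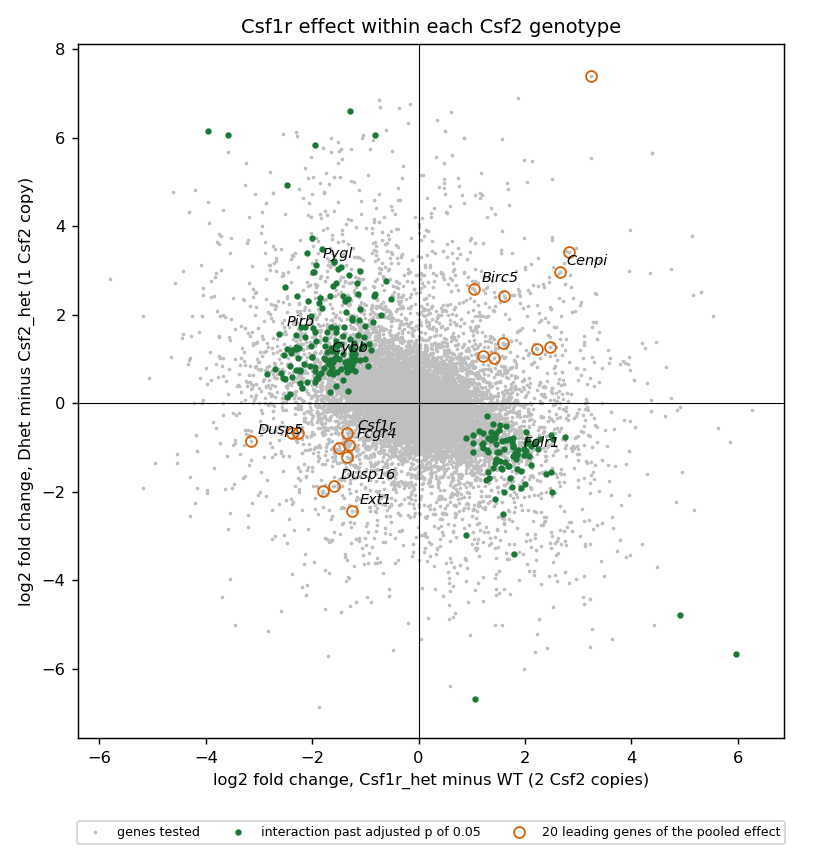
Log2 difference for 1 less Csf1r copy in Csf2+/+ mice (x axis) against Csf2+/- mice (y axis); each point is 1 of 13223 genes, green points passed the interaction test and open circles are the 20 leading genes of the pooled effect. The green points lie in the 2 quadrants of opposite sign.

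Genes that passed included receptors and enzymes of circulating myeloid cells. Pygl, the glycogen phosphorylase of liver and myeloid cells, had 3080.5, 3362 and 3867 in WT and 784, 867 and 1051 in Csf1r_het, but 449, 279 and 188 in Csf2_het and 2760.3 and 2262 in Dhet. The groups did not overlap within either genotype and the order turned (interaction log2 5.05, SE 0.51, limma adjusted p = 0.00136). Nfe2, a factor of the myeloid and megakaryocyte lines (interaction log2 4.08, adjusted p = 0.00362), and Pirb, an inhibitory receptor of myeloid cells (4.20, adjusted p = 0.00362), had the same order in limma. Over all 13223 genes, 1.85% passed. In the lists, 6 of 24 proximal signalling genes passed, among them Stat3, Ptpn6, Syk, Fgr and Dok3, with list medians of -1.21 and 0.37. In the phagocyte oxidase 3 of 7 passed, among them Cybb and Rac2, with medians of -0.94 and 0.95. MHC class I genes had medians of -0.97 and 0.37, and oxidative phosphorylation genes, none of which passed, had 0.46 and -0.84, with opposite signs in all 23.

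Monocyte markers moved with the interaction. All 10 were lower in Csf1r_het than in WT and higher in Dhet than in Csf2_het (medians -1.50 and 2.21). Of these 10 markers 5 passed, beside 1.85% of all genes. Their summed level was 79643 to 251119 in WT, 51749 to 65439 in Csf1r_het, 14052 to 21461 in Csf2_het and 63993 to 73256 in Dhet. Vcan was at 0 in 3 libraries (Csf2_het replicates 1 and 3 and Dhet replicate 1), and the others were detected in all. Their part in the interaction was not tested. Choroid plexus genes ran the other way (medians 0.88 and -1.01, opposite signs in all 10, 2 passed).

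**Figure D5:**
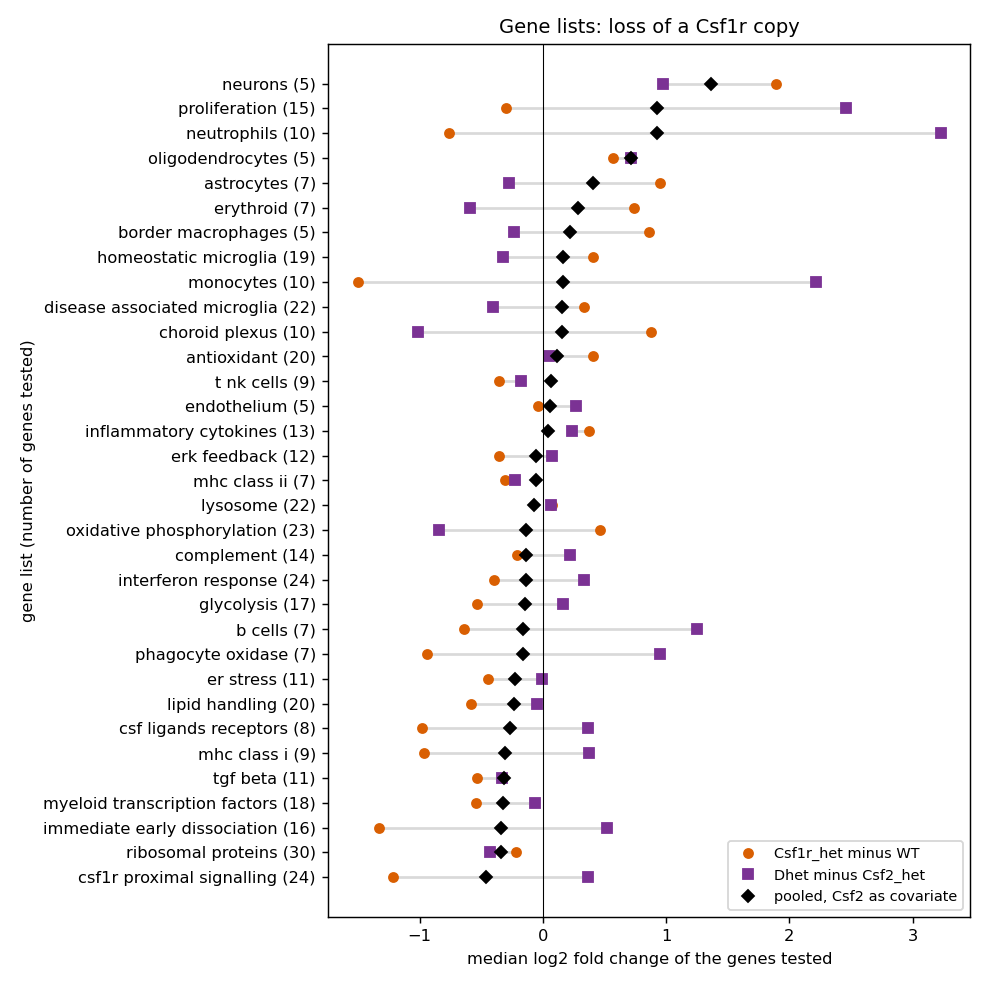
Median log2 difference for 1 less Csf1r copy (x axis) in each gene list (y axis, number of genes tested in parentheses), within Csf2+/+ mice (circles), within Csf2+/- mice (squares) and pooled (diamonds). Among these lists, each with at least 5 genes tested, neutrophils, monocytes and proliferation have the widest gaps between the Csf2 genotypes.

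Genes whose arms did not overlap at all were few. In 21 genes (0.159%) all 5 libraries with 1 copy lay below all 6 with 2, and in 15 (0.113%) all lay above. Besides Csf1r and Dusp5 they included Lifr, the LIF receptor subunit, at 409 to 730 with 1 copy and 793 to 1131 with 2, and Tlr7, a sensor of single-stranded RNA, at 1240 to 2461 and 2535 to 3037. They also included Idua, a lysosomal enzyme, at 440.1 to 500.1 and 585 to 1029. On the other side were Pkig, an inhibitor of protein kinase A, at 1842 to 2912 against 813 to 1733, and Psip1, a chromatin reader, at 785 to 1182 against 492 to 747. These genes were chosen after their values were seen, and none was past the limma threshold. Some genes separate in this way without any effect of genotype, so the separation alone does not link these genes to Csf1r. Within both Csf2 genotypes, 74 genes (0.56%) were lower without overlap and 37 (0.28%) higher, whereas 550 (4.16%) were lower in Csf2+/+ and higher in Csf2+/- mice and 348 (2.63%) the reverse. Without the 24-month libraries, 123 genes (0.93%) lay below and 108 (0.817%) above, with 3 libraries against 6, a split that separates more easily without any effect.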

How the data were processed

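RNA from Tmem119-sorted cerebral microglia was sequenced in 11 libraries. Per the submitters' processing notes, kallisto 0.43.1, DESeq2 and build mm10 were used. The deposited table of gene signal holds counts that the authors divided by size factors. Every value was a whole multiple (tolerance 0.02 reads) of 0.479 to 1.48 per library, so the reads were recovered (100% whole). Values were analysed as log2(normalized count + 1) with limma 3.58.1 (R 4.3.3, trended variance) on genes with a mean of at least 10, with Csf1r and Csf2 copies as terms and Benjamini-Hochberg adjustment at 0.05 over all 13223 genes. A 4-group model gave the interaction. edgeR 4.0.16 and DESeq2 1.42.0 on the recovered reads were alternatives and called 0 and 11 genes. The fit was tested on simulated data. Genes were named by rule: the CSF list, the 10 lowest p-values in each direction, the lowest p in each pathway list, the 2 most abundant markers of each list and 4 interaction genes. The members and the 35 gene lists were chosen with earlier results of these data known. 1516 genes of low mean were left out, and 14 genes share a symbol. Some genes that the rule names are not reported here.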

Additional observations from a re-analysis of the deposited data

Results flagged for a closer look

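In 5 cases 1 library lay far from the rest of its arm. Chance does so in about 1 of 20 groups. Csf1 was at 154 in WT replicate 2 and Stab1, a scavenger receptor, at 546 in the same library, both the lowest of 6 libraries with 2 Csf1r copies. Among the 5 libraries with 1 copy, Nlrc5, an activator of MHC class I genes, was at 49.6 and Il1a at 1903 in Dhet replicate 1, and Cd3d, a T cell gene, was at 129 in Dhet replicate 2.

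The Csf1r effect differed between the Csf2 genotypes in 244 genes by limma's interaction test. Of the named genes, the interaction log2 was 2.76 for Cybb, 2.50 for Itgb2, 3.46 for Slc16a3, 2.97 for Klf2, 3.68 for Chil3 and 4.93 for F13a1. It was 5.05 for Pygl, 4.08 for Nfe2 and 4.20 for Pirb. Folr1, a choroid plexus gene, had -2.99, the other direction.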

How the results depend on the processing

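The pooled effect had 0 genes in each direction in 25 of 27 alternatives; DESeq2 gave 4 higher and 7 lower, and leaving out 1 library at a time gave 0 higher and 0 to 2 lower. The Csf1r difference was -0.97 with 21-month libraries only, -1.29 within Csf2+/+ mice and -0.77 within Csf2+/- mice, with exact permutation p = 0.0625, 0.1 and 0.1, the smallest those designs allow; leaving out 1 library gave -1.20 to -0.89. Genes passing the interaction, 244 as reported, numbered 86 with haemoglobin genes removed, 65 with haemoglobin as covariate, 0 with 21-month libraries only and 0 with the mean log2 level of the monocyte markers as covariate (1735 at an unadjusted limma p under 0.05; the covariate is made of 10 genes that follow the interaction, 5 of them called, so this 0 says little), 14 with the replicate block, 909 with DESeq2 and 370 without both 24-month libraries (added after seeing the data). Leaving out 1 library gave 47 (without Dhet replicate 1) to 896 (without WT replicate 2); the cause was not tested. Removal of haemoglobin genes was followed by rescaling each library to the same total of the remaining genes. Where an arm keeps 1 library, that library is assumed to vary like the other groups. The numbers did not pair the libraries (r -0.21 to 0.062 over 15 same-number pairs, and 0 of 11 libraries correlated best with their own number); with the replicate block the pooled count was 0. Of 76 named genes, 11 changed sign within Csf2+/+ mice, 24 within Csf2+/- mice and at most 10 in any other alternative. Depth of 21037819 reads or more limits low genes; the spread between 5 and 6 libraries sets the intervals.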

Other observations

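Genes of nonclassical monocytes, the patrolling blood monocytes that express Fcgr4 and Treml4, were lower with 1 Csf1r copy in all 10 genes of a list chosen after the values were seen (median log2 -1.15, 7 at an unadjusted limma p under 0.05, beside 3.76% of all genes). The list was not tested, and it holds Fcgr4 and Cd300e, which were already among the leading genes of this effect. They were lower in all 10 within Csf2+/+ mice (median -1.87) and in 7 of 10 within Csf2+/- mice (median -0.31). Treml4, an innate immune receptor of these cells, had 9005, 4756 and 7608 normalized counts in WT and 2525, 1975 and 1300.2 in Csf1r_het, with no overlap. In Csf2+/- mice it had 918, 1033 and 1164 in Csf2_het and 963 and 766 in Dhet, which overlapped. Of 7 classical monocyte genes, 7 were lower in Csf1r_het than in WT and 7 higher in Dhet than in Csf2_het (medians -1.54 and 2.38). Of these 7, 5 passed the limma interaction, beside 1.85% of all genes.

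Of the 21 genes whose 1-copy libraries all lay below, 4 were on chromosome 18 (19.0%), where 2.22% of the genes tested lie: Csf1r, Pik3c3, Iws1 and Cep120. Csf1r is the gene whose copy number defines the arms, and all 4 were picked after their values were seen. On that chromosome Csf1r starts at base 61105572, Pik3c3 at 30272747, Iws1 at 32067741 and Cep120 at 53681724. A link with the Csf1r locus was not tested. Pik3c3 was at 152 to 297 with 1 copy and 299 to 625 with 2, Iws1 at 236 to 581 and 583 to 926, and Cep120 at 124 to 263 and 292 to 369. The median log2 difference of the 294 genes tested on that chromosome was -0.04, beside -0.05 over all genes.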
